A study of Mus musculus with 6 samples.

Results

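The genes described here are 9 genes of the MHC class I antigen processing pathway, H2-K1, H2-D1, B2m, Tap1, Tap2, Tapbp, Psmb8, Psmb9 and Nlrc5, of 32285 genes measured in single cells from a mouse brain tumor. They were chosen by name, as the rows with these symbols, and each symbol matched 1 row in both matrices. The tumor is CT2A, a mouse glioma line, grown in the brain of wild-type C57BL/6J mice aged 6 to 8 weeks. Leukocytes sorted for CD3, the surface complex that marks T cells, were profiled with 10x Genomics 5′ chemistry on day 13 (16 mice, in pools of 4) and on day 19 (4 mice). All mice carried the tumor and none is labelled as treated, so no group without a tumor enters any comparison. Each day is 1 capture with 4 multiplexing tags, and therefore 1 sample: no test between days is possible, and day, capture and staining cannot be told apart.

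MHC class I molecules carry peptides from inside the cell to its surface, where CD8 T cells read them. The immunoproteasome subunits Psmb8 and Psmb9 replace constitutive subunits and change which peptides are cut, the Tap1 and Tap2 proteins form the pump that moves peptides into the endoplasmic reticulum, and tapasin, the product of Tapbp, holds an empty class I molecule next to that pump. H2-K1 and H2-D1 encode the classical heavy chains and B2m the invariant light chain, while Nlrc5 is a transactivator that works at a composite element in the promoters of class I genes. Interferon gamma raises most of the pathway, in part through Irf1. Nearly all nucleated cells make class I molecules, and T cells and antigen-presenting cells are among those with the most.

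Values are CPM, the UMIs of a gene summed over the barcodes of a population and scaled to all its gene UMIs, where a UMI marks 1 captured RNA molecule. A 5′ library counts a molecule once whatever its length, so levels of different genes are compared on this scale. Of 8878 barcodes kept at day 13 and 4667 at day 19, 3428 and 1782 were CD8 T cells and 684 and 500 CD4 T cells, and 1019 and 343 had no Cd3 UMI although they came through the CD3 sort. Median depth of kept barcodes was 9500.5 and 11214 gene UMIs. Ranges given after a value are over the tag groups of a day, which describe 1 capture and are not replicate error, and a value over all barcodes can lie outside them because some barcodes have no clear tag. Square brackets give 95% counting intervals (exact Poisson or binomial), which cover counting error only. A difference is called where it is past 2-fold, among genes whose 2 sums add to 50 UMIs or more. In total 62 kept barcodes occurred on both days. Free RNA, read from barcodes with 10 to 100 UMIs, held every one of the genes, from 3605 CPM of H2-K1 to 71.5 CPM of Nlrc5 at day 13 and from 4057 to 49.8 at day 19, so their background in a droplet is not 0.

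The promoter stretches that the heavy chain genes and B2m share are printed first. H2-K1 and H2-D1, which the results compare as a pair, carry near-identical elements. All are from RefSeq windows of the GRCm38.p6 build, 250 bases before to 50 bases after an annotated start, which the table held for 7 of the 9 genes. Tap2 and Nlrc5 had no entry there. Capitals mark an NF-kB element (GGGGATTCCC) and an interferon element (TTTCACTTC), each sequence being written 5′ to 3′ on the gene's own strand.
H2-K1, chr17:34000429-34000458, minus strand: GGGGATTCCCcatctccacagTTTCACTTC
H2-D1, chr17:35262923-35262952, plus strand: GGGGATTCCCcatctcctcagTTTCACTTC
H2-Q7, chr17:35439022-35439050, plus strand: GGGGATTCCCatctccccagTTTCACTTC

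Farther downstream each of these promoters, and that of B2m, held the core of an X2 box (TGACG) followed by the core of a Y box (ATTGG), the arrangement known from the element at which Nlrc5 and the RFX proteins work. Capitals mark both cores. B2m also had an interferon element of the longer form.
H2-K1, chr17:34000359-34000388, minus strand: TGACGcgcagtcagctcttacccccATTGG
H2-D1, chr17:35262993-35263022, plus strand: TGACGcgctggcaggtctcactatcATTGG
H2-Q7, chr17:35439091-35439119, plus strand: TGACGtgtaacagttctcacccctATTGG
B2m, chr2:122147609-122147638, plus strand: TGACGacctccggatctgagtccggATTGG
B2m, chr2:122147538-122147567, plus strand: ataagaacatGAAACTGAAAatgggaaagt

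From the NF-kB element to the Y core, the promoters of H2-K1 and H2-D1 were identical at 89 of 100 positions and differed at 11. On both strands of all 32851 windows of 300 bases, GGGNNTTCCC occurred in 1.75%, GAAANNGAAA in 3.44%, GAANNGAAA in 7.52%, TGACG in 20.8% and ATTGG in 37.4%. The forms GAAANNGAAA and GAANNGAAA differ in spacing, and neither contains the other. Psmb9, Tap1, Psmb8 and Tap2 lie within 34292 bases of chromosome 17, and the starts of Psmb9 (minus strand) and Tap1 (plus strand) are separated by 225 bases. That stretch is shown because both genes start from it. Capitals mark a Y core on the opposite strand (CCAAT) and an X2 core.
Tap1 and Psmb9, chr17:34187331-34187555, plus strand: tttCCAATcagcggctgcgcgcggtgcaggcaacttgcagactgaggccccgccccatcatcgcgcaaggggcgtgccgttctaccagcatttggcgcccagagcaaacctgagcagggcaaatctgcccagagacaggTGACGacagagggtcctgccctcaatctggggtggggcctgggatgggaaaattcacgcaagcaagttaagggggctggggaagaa

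Within the Psmb8 window the STAT element TTCNNNGAA was found, which 8.30% of windows held, and within the Tapbp window the Y core alone. These matches are letters in a window, and nothing was measured about binding there.

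In CD8 T cells the heavy chains and B2m were the most abundant of the 9. H2-K1 stood at 3381 CPM at day 13 (3145 to 3701 over 4 tag groups) and 3075 at day 19 (2514 to 3350). H2-D1 was at 2878 (2661 to 3155) and 2678 (2212 to 2889), and B2m at 2538 (2356 to 2736) and 2393 (1929 to 2698). Tag groups of the days overlapped for these 3 genes. Psmb8, the immunoproteasome subunit with chymotrypsin-like activity, followed at 1002 CPM (935 to 1045) and 938 (885 to 1007), and Psmb9 was at 435 (391 to 498) and 356 (305 to 426). Tapbp was at 416 (381 to 457) and 304 (198 to 363), Tap1 at 299.6 (265 to 357) and 249 (175 to 291), and Tap2 at 273 (257 to 309) and 234 (199.7 to 252). Nlrc5 was the lowest of the 9, at 71.0 CPM (58.1 to 82.1) and 60.7 (41.3 to 65.4). In CD8 T cells at day 13, neighbours in this order whose tag groups overlapped were H2-D1 and B2m, Psmb9 and Tapbp, and Tap1 and Tap2. The heavy chains H2-K1 and H2-D1 overlapped only from 3145 to 3155 CPM.

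**Figure D1:**
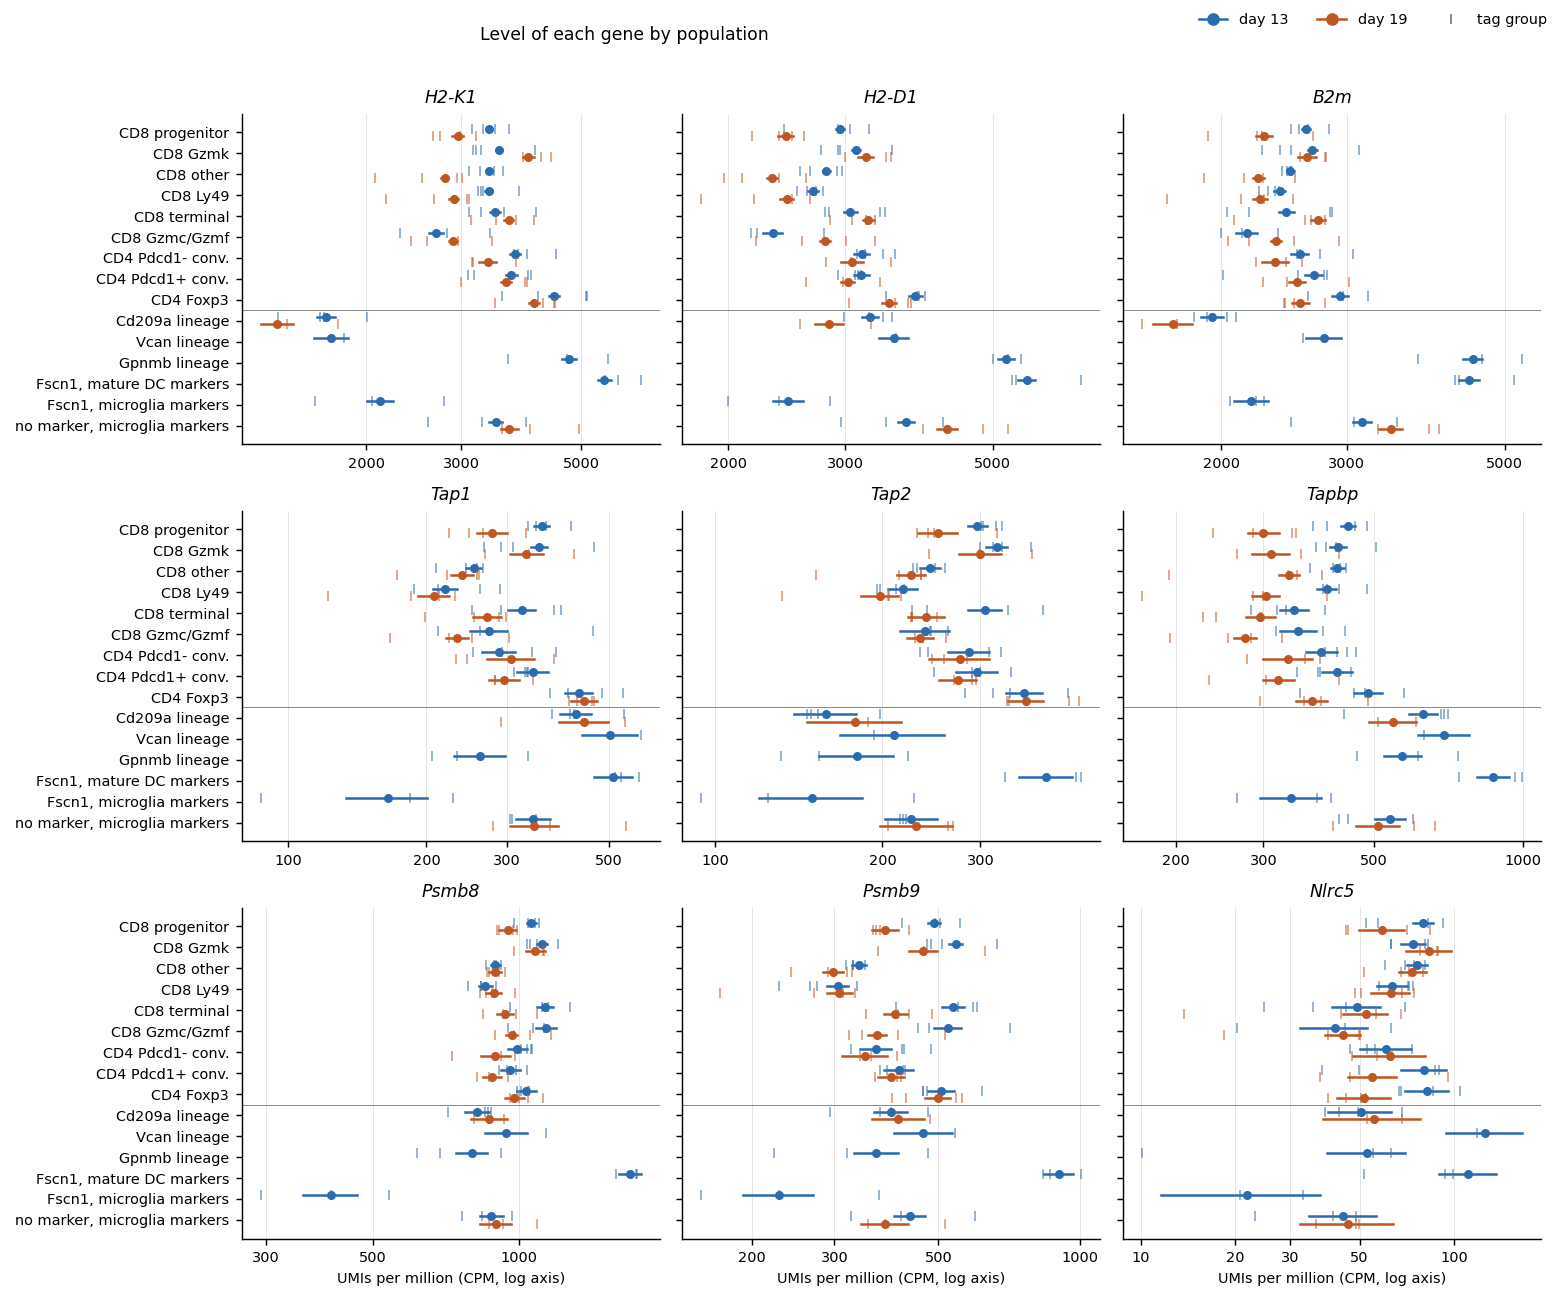
CPM on a log axis for each gene in T cell states (upper rows), lineages without Cd3 UMIs and Fscn1 subsets (lower rows). Points are values over all barcodes, bars 95% counting intervals and ticks single tag groups, in blue for day 13 and orange for day 19. H2-K1 is at 1686 CPM in the Cd209a lineage at day 13 and 3381 in CD8 T cells as a whole, while H2-D1 is at 3271 and 2878.

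Barcodes without Cd3 UMIs were split by 4 genes, each lineage having at least 2 UMIs of 1 of them and fewer of the other 3. Cd209a encodes a lectin of type 2 dendritic cells and monocyte-derived cells, Fscn1 an actin-bundling protein of mature dendritic cells, Gpnmb a glycoprotein of macrophages, and Vcan a proteoglycan of monocytes. At day 13 the lineages held 153, 182, 85 and 49 barcodes in this order, and at day 19 they held 58, 42, 7 and 11. The Gpnmb and Vcan lineages of day 19 were not compared. Of the markers that the split did not use, Clec10a was at 190 CPM, Flt3 at 104 CPM and Mgl2 at 55.6 CPM in the Cd209a lineage, with Ccr6 at 0. The Gpnmb lineage had Apoe at 23248 CPM and C1qa at 2904 CPM, and the Vcan lineage Plac8 at 4571 CPM and Ly6c2 at 4197 CPM, though Ly6c2 was also at 5122 CPM in the Gpnmb lineage. The 49 barcodes of the Vcan lineage are below the minimum of 50 used elsewhere, so it was added with a minimum of 40, as was the Fscn1 lineage of day 19.

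The Cd209a lineage had low H2-K1 together with H2-D1 near the T cell level. At day 13 H2-K1 was at 1686 CPM there (1370 to 2010 over 4 tag groups) and at 3381 in CD8 T cells (3145 to 3701). No tag group of the lineage reached one of the T cells. The log2 ratio was −1.0 [−1.06 to −0.95], the only one of the 9 genes past 2-fold. This call lies at the threshold: H2-K1 was at −0.78 with a minimum of 10000 gene UMIs, at −0.96 and −0.95 without tag group 1 or 2, just inside 2-fold with a stricter limit on antigen-presenting RNA in T cells, and at −0.57 with median-of-ratios scaling, where Tapbp, at 1.03, was past 2-fold. Past 2-fold in either direction were 42.0% of all genes tested in this comparison. At day 19 the values were 1367 CPM (1427 and 1770 in the 2 tag groups large enough) and 3075, a log2 ratio of −1.17 [−1.27 to −1.07]. Here too H2-K1 was the only one of the 9 past 2-fold, beside 40.7% of all genes, and this call ended with the 10000 UMI minimum (−0.97), with equal weight of tag groups (−0.89) and with median-of-ratios scaling (−0.81), where Tap1 (1.18) and Tapbp (1.20) were past 2-fold.

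H2-D1 did not follow H2-K1, and the part of the promoters in this difference was not tested. H2-D1 was at 3271 CPM in the Cd209a lineage (2986 to 3523) and 2878 in CD8 T cells (2661 to 3155), with overlapping tag groups and a log2 ratio of 0.18 [0.14 to 0.23] at day 13 and 0.08 [0.01 to 0.15] at day 19, the last turning to −0.13 with mitochondrial and ribosomal protein genes out of the total. The share of H2-K1 in the UMIs of both heavy chains does not depend on how a library is scaled. It was 34.0% [32.9 to 35.1] in the Cd209a lineage at day 13 (2577 of H2-K1 and 5000 of H2-D1, 31.5 to 38.2 over tag groups) and 32.5% [30.7 to 34.4] at day 19. In CD8 T cells it was 54.0% (53.7 to 54.5) and 53.5% (52.9 to 53.8), and in CD4 T cells 54.0% on both days. Every tag group of the lineage was below every tag group of the T cells on both days.

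The Vcan lineage resembled the Cd209a lineage in this share, and the other lineages did not. It stood at 32.7% [30.7 to 34.7] in the Vcan lineage, which had a single tag group of sufficient size, and at 47.5% (42.3 to 50.4) in the Gpnmb lineage. In free RNA the share was 55.1% at day 13 and 56.1% at day 19, above the values of the antigen-presenting lineages. Reads of H2-K1, H2-D1 and the H2-Q genes can be assigned among near-identical copies, so the split between the heavy chains is uncertain as far as counting goes. H2-Q7 was at 96.2 CPM in the Cd209a lineage and 705 CPM in CD8 T cells at day 13, and the part of read assignment in these shares was not tested.

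The genes of the peptide pump showed the same kind of difference in the Cd209a lineage. Tap1 was at 424 CPM (375 to 539) against 299.6 in CD8 T cells at day 13, a log2 ratio of 0.50 [0.38 to 0.62] with tag groups that did not overlap, and Tap2 at 158 (146 to 198) against 273, a log2 ratio of −0.78 [−0.97 to −0.60], again without overlap. Tap2 made up 27.2% [24.3 to 30.2] of the UMIs of both in the lineage at day 13 (26.6 to 28.1 over tag groups) and 28.8% [24.2 to 33.7] at day 19 (24.8 and 39.3). In CD8 T cells it made up 47.6% (46.4 to 49.2) and 48.5% (46.4 to 53.2). The Vcan lineage, at 29.4% [24.3 to 35.0], was again near the Cd209a lineage. The Gpnmb lineage was at 40.8% (39.0 to 40), below every CD8 tag group of day 13.

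**Figure D2:**
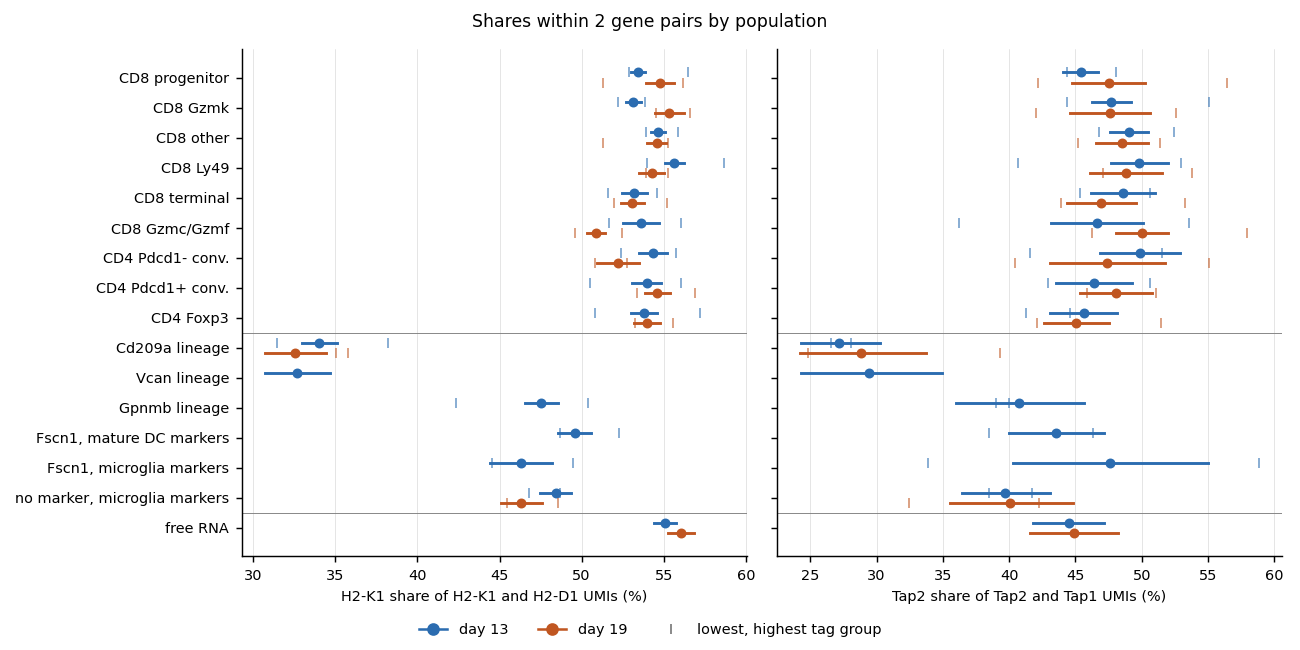
Share of H2-K1 in the UMIs of H2-K1 and H2-D1 (left) and of Tap2 in the UMIs of Tap2 and Tap1 (right), in percent, with 95% binomial intervals as bars and the lowest and highest tag group as ticks, for day 13 (blue) and day 19 (orange). The Cd209a lineage (34.0% and 32.5% for H2-K1) and the Vcan lineage (32.7%) stand to the left of T cells (54.0% and 53.5% in CD8) and of free RNA (55.1% and 56.1%).

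Among the remaining genes in the Cd209a lineage at day 13, Tapbp was at 629 CPM (435 to 706) against 416, a log2 ratio of 0.60 [0.50 to 0.69]. Psmb8 (−0.29), B2m (−0.39) and Nlrc5 (−0.50) had ratios below 0, and Psmb9 was at −0.14. Over the 9 genes the median was −0.29 and over all genes −0.44, and tag groups did not overlap for 5 of the 9, beside 52.8% of all genes. With median-of-ratios scaling, which centres the genes, B2m (0.05), Psmb8 (0.15) and Psmb9 (0.30) changed sign, H2-K1 (−0.57) and Tap2 (−0.35) stayed below 0, and Tap1 (0.94) and Tapbp (1.03) stayed above. At day 19 tag groups did not overlap for 4 of the 9, beside 64.9% of all genes. In the Vcan lineage none of the 9 was past 2-fold against CD8 T cells, beside 44.4% of all genes, the furthest being H2-K1 at −0.97 and Nlrc5 at 0.83 (126 CPM).

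The Fscn1 lineage held 2 kinds of barcode that differed in every one of the genes. Its summed mature dendritic cell markers, Fscn1 among them, were at 8257 CPM and its summed microglia markers at 5034 CPM at day 13, and at 9935 and 3932 CPM at day 19. Microglia are the resident macrophages of the brain. After these values were seen, the lineage was split into barcodes with at least 5 UMIs of Ccr7, Ccl22, Cacnb3, Il4i1 and Socs2 and fewer than 5 of a microglia marker list that includes P2ry12, Tmem119 and Sall1 (95 mature dendritic cell-like barcodes), the reverse (75 microglia-like barcodes), and 12 with both or neither. Of macrophage-lineage genes that the split did not use, C1qa was at 35.8 CPM in the first and 6834 CPM in the second, and Trem2 at 4.77 and 1458 CPM. Fscn1 itself was at 5769 and 558 CPM.

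All 9 genes were past 2-fold higher in the mature dendritic cell-like than in the microglia-like barcodes at day 13, beside 19.6% of all genes past 2-fold higher. Tag groups did not overlap for any of the 9, beside 24.6% of all genes. Nlrc5 was at 111 CPM (51.6 to 99.7 over 3 tag groups) and 21.9 CPM (0 to 33.1), the largest log2 ratio of the 9 at 2.34 [1.5 to 3.31]. Psmb8 was at 1691 CPM (1584 to 1755) and 409 CPM (293 to 540), a ratio of 2.05 [1.85 to 2.25], and Psmb9 at 902 CPM (837 to 1008) and 229 CPM (156 to 373), a ratio of 1.98. By point value Nlrc5 and the immunoproteasome genes had the widest gaps. The interval of Nlrc5 held the ratios of Psmb8 and Psmb9 and that of Tap1, so its rank is not settled. Its level in the microglia-like barcodes was below the 71.5 CPM of free RNA. Tap1 (510.4 and 165 CPM) had a ratio of 1.63, Tap2 (394 and 150 CPM) of 1.4 and Tapbp (871 and 341 CPM) of 1.35.

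B2m and H2-D1 had the smallest gaps of the 9. H2-K1 was at 5527 CPM (5551 to 6447) and 2118 CPM (1608 to 2781), a log2 ratio of 1.38, and H2-D1 at 5622 (5340 to 6790) and 2458 (2000 to 2843), a ratio of 1.19. B2m was at 4457 (4252 to 5144) and 2204 (2057 to 2293), a ratio of 1.02 [0.92 to 1.11]. Leaving out single tag groups moved the ratio of B2m between 0.91 and 1.04 and that of H2-D1 between 0.98 and 1.25, so both could lose their 2-fold call. The median over the 9 was 1.4 and over all genes −0.04. At day 19 only 24 and 15 such barcodes were left and no ratio was formed. Their values then were 4810 and 3687 CPM for H2-K1, 2044 and 670 CPM for Psmb8 and 129 and 13.8 CPM for Nlrc5.

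Against CD8 T cells, the mature dendritic cell-like barcodes had log2 ratios above 0 for all 9 genes, with a median of 0.77 where all genes had −0.34. Tapbp (1.07) and Psmb9 (1.05) were past 2-fold, 2 of 9 beside 43.8% of all genes, and with mitochondrial and ribosomal protein genes out of the total they were at 0.76 and 0.74. Tag groups did not overlap for 8 of the 9, each of them higher, beside 16.2% of all genes higher; the exception was Nlrc5 (0.64). The microglia-like barcodes had ratios below 0 for all 9 genes, with Nlrc5 (−1.70) and Psmb8 (−1.29) past 2-fold. These 2 of 9 stand beside 40% of all genes past 2-fold in either direction. Tag groups did not overlap for 7, each lower, beside 30.8% of all genes lower. H2-D1 (−0.23) and Tapbp (−0.28) overlapped.

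The subset with mature dendritic cell markers was also above the Cd209a lineage. Past 2-fold higher were 6 of the 9, beside 13.6% of all genes, and these were H2-K1 (1.71), Tap2 (1.31), B2m (1.20), Psmb9 (1.19), Nlrc5 (1.14) and Psmb8 (1.05). Tap1 (0.27) and Tapbp (0.47) had the smallest ratios, H2-D1 being at 0.78. For the unsplit Fscn1 lineage, H2-K1 alone was past 2-fold at day 13 (1.34, beside 23.5% of all genes), and H2-K1 (1.69) and B2m (1.26) at day 19, beside 27.7%. Against CD8 T cells the unsplit lineage had 0 of the 9 past 2-fold on either day, beside 40.6% and 36.8%.

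Barcodes with microglia markers and fewer than 2 UMIs of each of the 4 lineage genes, 148 at day 13 and 77 at day 19, did not have the low values of the Fscn1 subset with the same markers. H2-K1 was at 3474 and 3681 CPM, Psmb8 at 877 and 895 CPM and Nlrc5 at 44.4 and 46.0 CPM. None of the 9 was past 2-fold against CD8 T cells on either day, beside 36.4% and 35.5% of all genes. The Fscn1 subset with microglia markers had a median depth of 6467 gene UMIs, and the subset with mature dendritic cell markers 7924. The part of depth in these ratios was not tested.

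**Figure D3:**
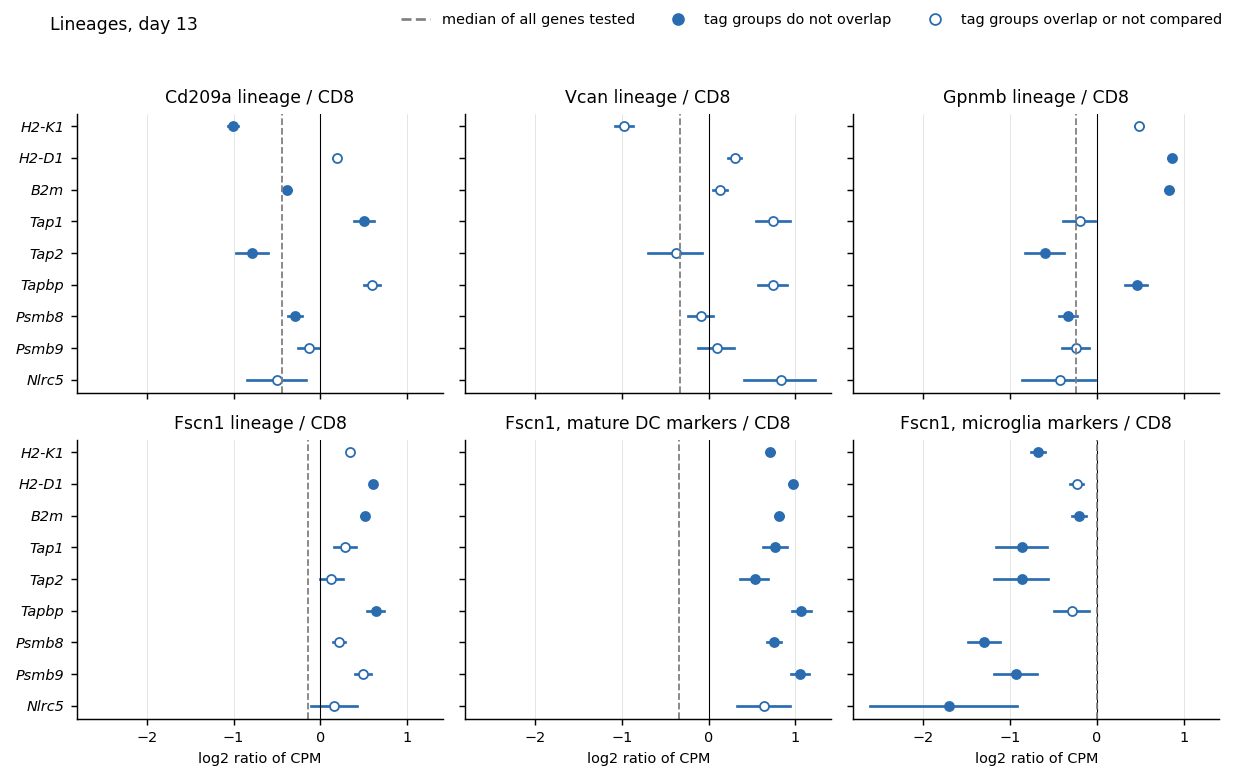
Log2 ratio of CPM against CD8 T cells at day 13 for each gene in 4 lineages and both Fscn1 subsets, with 95% counting intervals. Filled points have tag groups that do not overlap, and the dashed line is the median of all genes tested. The subset with mature dendritic cell markers lies to the right of 0 for every gene and the one with microglia markers to the left, with Nlrc5 at 0.64 and −1.70.

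In the Gpnmb lineage the heavy and light chain genes had ratios above 0 and Tap2 and Psmb8 ratios below 0. H2-D1 was at 5234 CPM (4994 to 5518 over 3 tag groups), B2m at 4506 (3773 to 5285) and H2-K1 at 4744 (3664 to 5608). The ratios to CD8 T cells were 0.86, 0.83 and 0.49. Tap2 (180 CPM, −0.60) and Psmb8 (799 CPM, −0.33) were lower and H2-D1, B2m and Tapbp (571 CPM, 0.46) higher with no overlap of tag groups, 5 of 9 beside 50.7% of all genes. H2-K1, Tap1 (−0.20), Psmb9 (−0.24) and Nlrc5 (−0.43) overlapped. With a minimum of 10000 gene UMIs Nlrc5 turned to 0.29, and the median over the 9 went from −0.20 to 0.29, while with median-of-ratios scaling Tap1 turned to 0.04. None of the 9 was past 2-fold, beside 38.0% of all genes. Against the Vcan lineage, H2-K1 was past 2-fold higher (1.46) and Nlrc5 past 2-fold lower (−1.25), 2 of 9 beside 26.8% of all genes.

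Immunoproteasome subunits can be read against the constitutive subunits they replace. Psmb8 made up 83.5% of the UMIs of Psmb8 and Psmb5 in CD8 T cells at day 13 (81.6 to 85.0), 91.5% in the mature dendritic cell-like barcodes (91.7 to 95.6 over tag groups) and 69.8% [64.7 to 74.6] in the microglia-like subset of the Fscn1 lineage. Of the UMIs of Psmb9 and Psmb6 in CD8 T cells, those of Psmb9 made up 70.8% on day 13 (67.5 to 74.7) and 64.1% on day 19 (60.0 to 68.1). The same share was 82.9% in the mature dendritic cell-like barcodes and 54.9% [50.9 to 58.8] in the Gpnmb lineage. At day 13 the tag groups of the Gpnmb lineage (46.0 to 60.3) were below all those of CD8 T cells.

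Among T cells no gene of the 9 was past 2-fold in any comparison of classes or states. CD8 T cells were lower than CD4 T cells in H2-K1 (3381 and 3983 CPM, log2 ratio −0.24 [−0.26 to −0.22]) and H2-D1 (2878 and 3391 CPM, −0.24), without overlap of tag groups, at day 13. The same held at day 19 for H2-K1 (−0.29), H2-D1 (−0.26), Tap1 (−0.50) and Tap2 (−0.39). Past 2-fold were 0 of 9 beside 9.57% of all genes at day 13 and 11.2% at day 19. Tag groups did not overlap for 2 of 9 beside 20.7% of all genes, and for 4 of 9 beside 21.0%. RNA of the 11 antigen-presenting genes was at 863 and 1060 CPM in CD8 and 1477 and 2231 CPM in CD4 T cells on the 2 days, and its part in these ratios was not tested.

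Regulatory CD4 T cells, marked by Foxp3, had the highest H2-K1 of the 9 T cell states on both days, at 4447 CPM (3570 to 5137) and 4093 CPM (3466 to 4470). At day 19 the range of these regulatory cells held the level of CD8 T cells with Gzmk, given further below. Against CD4 T cells with neither Foxp3 nor Pdcd1, which encodes the inhibitory receptor PD-1, Tap1 had a log2 ratio of 0.58 [0.42 to 0.74] at day 13 (429 and 288 CPM) and 0.53 [0.34 to 0.73] at day 19 (441 and 305 CPM). Psmb9 was at 0.46 and 0.52. With a minimum of 10000 gene UMIs Tap1 was at 0.24 and 0.29 and Psmb9 at 0.14 and 0.39, and with no limit on antigen-presenting RNA Tap1 was at 0.39 and 0.24 and Psmb9 at 0.34 and 0.25. The median over the 9 at day 13 went from 0.31 to 0.11 with the 10000 UMI minimum, to 0.19 with no limit or with classes from 2 UMIs, and to 0.18 with equal weight of tag groups. Tag groups overlapped for all 9 at day 13, beside 9.35% of all genes without overlap. At day 19 Tap1 and Tap2 (0.40) did not overlap, beside 16.8%. Past 2-fold were 0 of the 9, beside 4.82% and 8.99% of all genes. CD4 T cells with Pdcd1 but no Foxp3 had a median ratio of 0.07 to the same cells at day 13 and −0.02 at day 19, with 0 of 9 past 2-fold beside 1.68% and 4.54%. Under other settings these medians lay on both sides of 0, from −0.26 to 0.14 at day 13 and from −0.087 to 0.094 at day 19.

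Exhausted CD8 T cells run from a progenitor state that keeps Tcf7 to a terminal state with Havcr2. Of the 9 genes, Nlrc5 had the largest difference between them at day 13, with 49.1 CPM (24.8 to 69.8) in terminal and 79.7 CPM (52.4 to 92.4) in progenitor cells, a log2 ratio of −0.70 [−0.98 to −0.43] with overlapping tag groups. At day 19 it was −0.18 [−0.51 to 0.16]. The heavy chains ran the other way at day 19, when H2-D1 was at 0.41 [0.37 to 0.46] without overlap and H2-K1 at 0.32, after 0.05 and 0.04 at day 13. None of the 9 was past 2-fold, beside 7.27% of all genes at day 13 and 6.96% at day 19. The single gene without overlap at day 19 stands beside 11.8% of all genes.

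CD8 T cells with Gzmc or Gzmf, granzymes of strongly activated killer cells, also had low Nlrc5. It was at 41.6 CPM (20.3 to 63.2) against the progenitor state at day 13, a log2 ratio of −0.94 [−1.32 to −0.57], and at 44.3 CPM and −0.42 [−0.72 to −0.11] at day 19. For Nlrc5 the tag groups overlapped those of progenitor cells on both days. At day 13 H2-K1 (−0.32), H2-D1 (−0.34), B2m (−0.28), Tap1 (−0.38), Tap2 (−0.31) and Tapbp (−0.33) were also below 0, and Psmb8 and Psmb9 were both at 0.10. None of the 9 was past 2-fold, beside 13.6% and 8.08% of all genes. The median over the 9 was −0.32 at day 13 but −0.12 without barcodes over 25000 gene UMIs. These 70 barcodes had a median of 21041.5 gene UMIs, and 7406 was the median of all CD8 T cells. The 11 antigen-presenting genes summed to 1580 CPM in them and 707 CPM in progenitor cells at day 13, and the mature dendritic cell markers, all 6 detected, to 518 and 287 CPM. Their part in these ratios was not tested.

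Cycling CD8 T cells, with at least 2 UMIs of Mki67 and Top2a, had less heavy chain, B2m and Nlrc5 RNA per UMI at day 13, while Psmb9 had a ratio above 0. H2-K1 was at 2641 CPM (2474 to 3280) in cycling and 3660 CPM (3332 to 3847) in other CD8 T cells, a log2 ratio of −0.47. H2-D1 was at −0.37, B2m at −0.32 and Nlrc5 at −0.65 (50.3 and 78.8 CPM). These 4 genes had tag groups that did not overlap, 4 of 9 beside 35.8% of all genes. Psmb9 was at 508 CPM in cycling and 408 CPM in other cells (0.32 [0.27 to 0.37]), with overlapping tag groups. At day 19 Nlrc5 (−0.61) was again without overlap, 1 of 9 beside 22.5%, and H2-K1 was at −0.21 and Psmb9 at 0.31. Past 2-fold were 0 of the 9, beside 13.3% and 8.35% of all genes. Without barcodes over 25000 gene UMIs, H2-K1 was at −0.27, H2-D1 at −0.19, B2m at −0.18 and Nlrc5 at −0.40 at day 13, and the median over the 9 went from −0.32 to −0.15 at day 13 and from −0.15 to −0.064 at day 19. Cycling cells had a median of 18110 and 17561.5 gene UMIs.

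Among CD8 T cells that are not exhausted by these rules, those with Ly49 receptors (Klra genes, receptors for class I molecules) and those with Gzmk, a granzyme of memory-like effector cells, differed most in Psmb9 among the 9 genes at day 13. Psmb9 was at 305 CPM (229 to 335) in Ly49 and 544 CPM (473 to 665) in Gzmk cells, a log2 ratio of −0.84 [−0.92 to −0.75]. Tap1 was at 219 and 352 CPM (−0.68), Tap2 at 218 and 321 CPM (−0.56) and Psmb8 at 853 and 1114 CPM (−0.39). H2-D1 was at 2686 and 3109 CPM (−0.21). H2-K1, at 3371 and 3527 CPM (−0.07), and Tapbp (−0.08) were above 0 with median-of-ratios scaling, at 0.05 and 0.04, and with mitochondrial and ribosomal protein genes out of the total, at 0.13 and 0.12. Tag groups did not overlap for 3 of the 9 (Tap2, Psmb8 and Psmb9), beside 24.7% of all genes.

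At day 19 the Ly49 cells had ratios below 0 for all 9 genes, and tag groups did not overlap for 7 of them, beside 19.1% of all genes. Tap1 was then at −0.67, Tap2 at −0.60, Psmb9 at −0.59 and H2-K1 at −0.46 (2905 and 3991 CPM), while Tapbp was at −0.03 and turned to 0.05 with median-of-ratios scaling. None of the 9 was past 2-fold on either day, beside 10.3% and 6.04% of all genes. This comparison was added after the levels were seen.

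**Figure D4:**
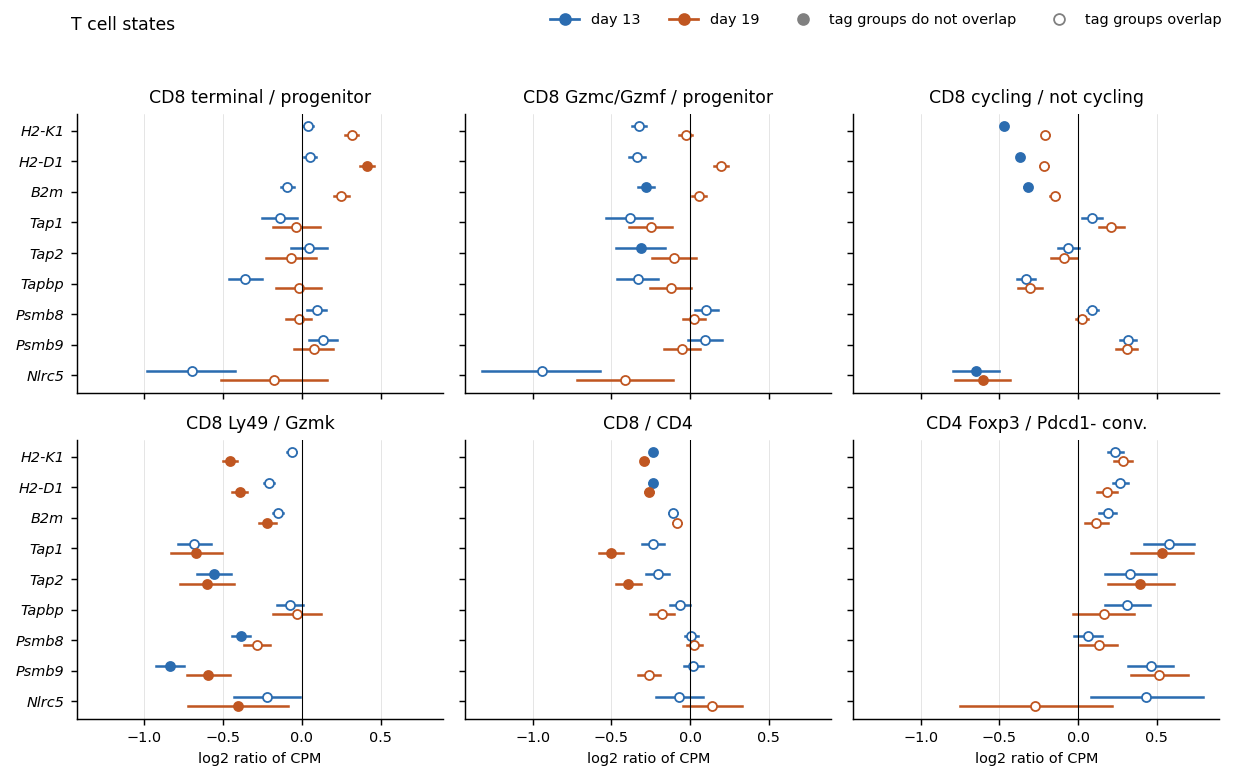
Log2 ratio of CPM for each gene in 6 comparisons of T cell states, for day 13 (blue) and day 19 (orange), with 95% counting intervals. Filled points have tag groups that do not overlap. Nlrc5 lies to the left of 0 in the terminal (−0.70 and −0.18), Gzmc/Gzmf (−0.94 and −0.42) and cycling (−0.65 and −0.61) cells, and Psmb9 and Tap1 in the Ly49 cells.

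Between the days, the 9 genes had ratios below 0 in CD8 T cells (H2-D1 reached 0.0061 with a minimum of 10000 gene UMIs), and none was past 2-fold. The share of all genes past 2-fold was 5.54%. Tapbp had the largest difference of the 9, with 416 CPM at day 13 (381 to 457) and 304 at day 19 (198 to 363), a log2 ratio of −0.45 [−0.49 to −0.41] with no overlap between the tag groups. Tap2 (−0.22) did not overlap either, 2 of 9 beside 20.6% of all genes. Psmb9 was at −0.29, Tap1 at −0.27, Nlrc5 at −0.23, H2-K1 at −0.14, and H2-D1 and Psmb8 both at −0.10. The median was −0.22 over the 9 and −0.03 over all genes.

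Tapbp had a ratio below 0 in each of the 9 T cell states, whereas H2-K1 did not. All 9 genes were below 0 in progenitor cells, other CD8 cells and CD4 T cells with Pdcd1 but no Foxp3. Tapbp was not the lowest of the 9 in every state. The lowest ratio was −0.50 in Gzmc or Gzmf cells and −0.41 in terminal cells. It was −0.67 in Foxp3 cells and −0.55 in CD4 T cells with Pdcd1 but no Foxp3. In progenitor cells Tapbp was at 444 CPM and 299.96 CPM, a log2 ratio of −0.57 [−0.68 to −0.45]. Tag groups did not overlap for Tapbp and Tap1 there, 2 of 9 beside 14% of all genes. The ratio of Tapbp was −0.45 in Gzmk cells, −0.41 in Ly49 cells, −0.36 in Gzmc or Gzmf cells, −0.33 in other CD8 cells and −0.23 in terminal cells. In CD4 T cells it was at −0.39 with Pdcd1, −0.38 with Foxp3 and −0.23 with neither. In lineages the intervals came close to 0 or held it, with −0.20 [−0.39 to −0.02] in the Cd209a lineage and −0.11 [−0.33 to 0.10] in the Fscn1 lineage. H2-K1 was at 0.18 in Gzmk, 0.10 in Gzmc or Gzmf and 0.08 in terminal cells, and at −0.19 in progenitor, −0.21 in Ly49 and −0.28 in other CD8 cells. The macrophage markers summed to 223 CPM in progenitor cells at day 13 (21.5 to 305) and 663 CPM at day 19 (147 to 1110), and to 241 and 492 CPM in all CD8 T cells, and their part in these ratios was not tested. With the states weighted as at day 13, Tapbp was at −0.42 in CD8 T cells and the median of the 9 at −0.12. In free RNA Tapbp was at 393 CPM at day 13 and 334 CPM at day 19.

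In CD4 T cells the largest day difference of the 9 was that of Nlrc5, with 74.5 CPM (60.5 to 74.3) and 55 CPM (43.9 to 74.8), a log2 ratio of −0.44 [−0.66 to −0.22] with overlap. Within Foxp3 cells it was −0.67 [−1.04 to −0.30], at 82.2 CPM (66.7 to 105) and 51.8 CPM (39.7 to 52.4), without overlap, 1 of 9 beside 7.1% of all genes. Past 2-fold were 0 of 9 in CD4 T cells, beside 5.91% of all genes, and 0 of 9 in Foxp3 cells, beside 5.88%. The macrophage markers summed to 440 CPM in CD4 T cells at day 13 (351 to 454, with Mrc1 at 0) and 933 CPM at day 19 (831 to 969), and their part in these ratios was not tested. In the Cd209a lineage 5 of the 9 had ratios above 0 and the median was 0.05, with H2-K1 at −0.30, H2-D1 at −0.21, B2m at −0.18 and Tap2 at 0.17, and with 0 of 9 past 2-fold beside 2.49%. In the Fscn1 lineage Psmb8 was at 0.35 [0.22 to 0.49], from 1164 to 1487 CPM, with 0 of 9 past 2-fold beside 6.83%. The balance of its 2 kinds of barcode moved with this ratio, with mature dendritic cell markers at 8257 and 9935 CPM and microglia markers at 5034 and 3932 CPM, and its part was not tested.

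**Figure D5:**
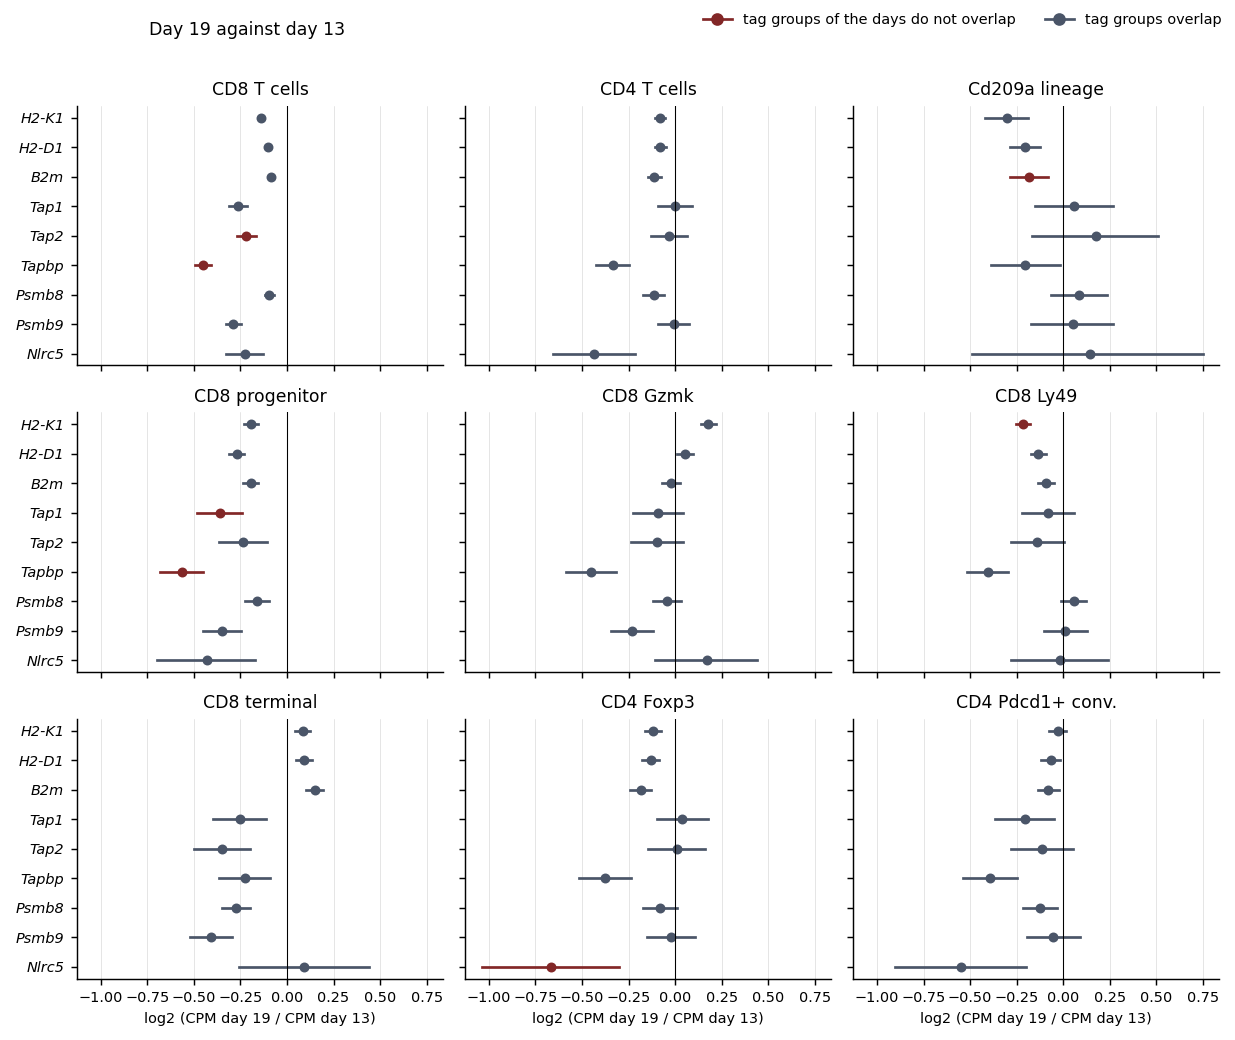
Log2 ratio of CPM at day 19 over day 13 for each gene in 9 populations, with 95% counting intervals. Points in dark red have tag groups that do not overlap between the days. Tapbp is left of 0 in each of the populations, at −0.45 in CD8 T cells, −0.34 in CD4 T cells and −0.57 in progenitor CD8 cells.

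Other genes of the pathway were taken from a list of 44, of which 43 were matched. In CD8 T cells 2 of 39 with enough UMIs were past 2-fold between the days, a share near the 5.54% of all genes: Irf8, an interferon regulatory factor, rose from 99.5 to 201 CPM, and the nonclassical gene H2-T24 fell from 32.7 to 12.4 CPM. Against CD8 T cells at day 13, the Cd209a lineage was past 2-fold higher in 5 and lower in 6 of 40, beside 13.3% higher and 28.7% lower among all genes, so neither count is above its background. The nonclassical heavy chains H2-Q7 (96.2 and 705 CPM, log2 ratio −2.87), H2-Q6 (35.3 and 278 CPM, −2.97) and H2-Q4 (122 and 322 CPM, −1.39) were among the lower. The cores in the promoter of H2-Q7 are those printed above, and their part in these levels was not tested. Among the higher was Ciita (7.23), the class II counterpart of Nlrc5.

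In the mature dendritic cell-like against the microglia-like barcodes, 14 of 33 were past 2-fold higher and 4 lower, beside 19.6% higher and 21.9% lower among all genes. The higher included Psme2, a subunit of the proteasome activator (2611 and 346 CPM, log2 ratio 2.91), Irf1 (614 and 225 CPM, 1.45) and H2-Q7 (2.56). The lower were the chaperones Calr (89.4 and 328 CPM, −1.87), Pdia3 (236 and 783 CPM, −1.73) and Canx (−1.08), which serve folding of many proteins, and the receptor chain Ifngr1 (91.8 and 602 CPM, −2.71). Erap1, which trims peptides in the endoplasmic reticulum, was at 35.8 and 35.3 CPM. In terminal against progenitor CD8 T cells 4 of 37 were past 2-fold at day 13 and 3 of 34 at day 19, beside the 7.27% and 6.96% of all genes given above. Irf1 was lower (189 and 403 CPM, −1.09) and Irf8 higher (180 and 71.2 CPM, 1.34) at day 13, and at −1.03 and 1.46 at day 19.

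Over 30 populations by day, the 9 genes did not share 1 pattern. Psmb8 and Psmb9 had a Pearson correlation of 0.82, H2-K1 and B2m of 0.80, H2-D1 and B2m of 0.80, and Tap1 and Psmb9 of 0.68. That of H2-K1 and H2-D1 was 0.47, that of Tap1 and Tap2 0.31, and that of H2-K1 and Tap1 −0.16. With the 9 themselves left out, the genes whose log2 CPM was most like their mean were Ptpra (0.84), Selenok (0.83), Ciao2b (0.80), Mxi1 (0.79) and Map11 (0.79). Fam32a (0.78), Aftph (0.78), Stam2 (0.77), Atxn7l1 (0.77) and Vsir (0.77) followed, of 5641 genes. Most like Nlrc5 were Trim26 (0.80) and Ddx60 (0.77), followed by Prdm2, Kif1b and Epb41. These populations share captures, free RNA and depth, and the correlations are descriptions.

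An antibody tag labelled H2kb was read in the same barcodes. Whether it binds the product of H2-K1 alone is not known here, since no label names its clone. At day 13 it took 0.814% of the UMIs of 138 tags in CD8 T cells, 0.814% in the Cd209a lineage, where H2-K1 RNA was less abundant, and 0.793% (0.734 to 0.844) and 0.769% (0.536 to 0.840) in the dendritic cell-like and microglia-like Fscn1 subsets. At day 19 it was at 0.799% in CD8 T cells and 0.859% in the Cd209a lineage. Of the isotype controls in CD8 T cells, IgG1 stood at 0.257% and 0.249% on the 2 days, IgG2a at 0.209% and 0.192%, and IgG2b at 0.133% and 0.129%. The class II tag IA/IE was at 0.137% in CD8 T cells and 3.44% in the dendritic cell-like subset at day 13. A share of tag UMIs is relative to the other tags, and how the H2kb tag responds to protein amount was not tested.

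With each barcode thinned to 5000 gene UMIs, 31.7% [30.1 to 33.3] of CD8 T cells had a UMI of Nlrc5 at day 13 and 27.6% [25.5 to 29.7] at day 19 (46.8% and 47.7% unthinned). In the Gzmc or Gzmf cells it was 11.4% [5.07 to 21.3], 8 of 70, at day 13 (50% unthinned, at their greater depth) and 21.2%, 68 of 321, at day 19. In the mature dendritic cell-like subset it was 41.1% [31.1 to 51.6] and in the microglia-like subset 9.33% [3.84 to 18.3], 7 of 75. At day 13 the order of these 4 shares was that of the Nlrc5 CPM. Psmb8 was found in 98.5%, Tapbp in 82.1%, Psmb9 in 79.8%, Tap2 in 71.3% and Tap1 in 70.5% of thinned CD8 T cells at day 13. No population known to lack these genes was available as a background. Free RNA held Nlrc5 at 71.5 CPM at day 13, above the 21.9 CPM of the microglia-like subset, and the part of free RNA in each share was not tested.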

How the data were processed

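Gene expression, antibody tag and T cell receptor libraries of 1 capture per day were used (6 samples, 2 days). The authors deposited unfiltered matrices of UMI counts, per the file headers. The submitters' processing notes name bcl2fastq 2.20, Cell Ranger 4.0.0, STAR 2.7.5c, Seurat, R 4.1.2 and the mm10 build. The deposited counts hold 144565182 gene UMIs at day 13 and 81224453 at day 19.

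Barcodes with at least 5000 gene UMIs and at most 10% mitochondrial UMIs were kept. T cells had a UMI of Cd3d, Cd3e or Cd3g and under 1% of UMIs on 11 antigen-presenting genes. No doublet caller was run, and 2785 and 1514 Cd3 barcodes past that limit were left out. Classes needed 1 UMI (Cd8a or Cd8b1, or Cd4) and none of the other class. CD8 states were taken in order: Gzmc and Gzmf (2 UMIs together), terminal (Pdcd1 and Havcr2, no Tcf7 or Slamf6), progenitor (Pdcd1 with Tcf7 or Slamf6, no Havcr2), Ly49 (2 Klra UMIs), Gzmk (2 UMIs) and other. A barcode was in a tag group if 80% of its multiplexing UMIs were of 1 tag, and groups needed 10 barcodes.

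UMIs were summed per population and divided by the total. Ratios have exact conditional 95% intervals, and a sum of 0 was set to 3 counts. All genes with 50 UMIs or more over both sums were compared the same way. On simulated counts for 11218 unchanged genes, 95.7% of intervals held the true ratio. These counts were drawn from Poisson distributions, so this checks the computation only. It does not cover spread between barcodes or tag groups. Populations needed 50 barcodes, or 40 where added.

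Genes named are the 9, those of the pathway list past 2-fold (Erap1 was named after its values were seen), and the 10 (for Nlrc5, 5) most correlated genes, on log2(CPM + 1) with a mean CPM of at least 20. Some genes of these lists are not reported here. The members and lists were chosen with earlier results of these data known. The Fscn1 subsets, the microglia-like barcodes without lineage markers, the shares within gene pairs, the day ratios within states and the Ly49 comparison were added after values were seen. Alternatives changed depth limits, scaling, class rules, tag weights and single tag groups. Python 3.11.15, numpy 2.4.6, scipy 1.17.1, pandas 2.3.3 and matplotlib 3.10.9 were used.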

Additional observations from a re-analysis of the deposited data

How the results depend on the processing

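No paired analysis was possible because each day is 1 capture and the labels tie no tag number to an animal. Of 338 alternative values for 24 results that answer a comparison, 308 stayed within the spread over tag groups or counting error and 30 moved further, some of them to the other side of 0. The values that moved are medians over the 9 genes, and the cause was not tested. With 10000 gene UMIs as the minimum, Gzmc or Gzmf over progenitor at day 13 went from −0.32 to −0.20, Foxp3 over Pdcd1-negative CD4 at day 13 from 0.31 to 0.11, Pdcd1-positive over Pdcd1-negative CD4 at day 13 from 0.07 to −0.26, Gpnmb lineage over CD8 from −0.20 to 0.29 and terminal over progenitor at day 19 from −0.02 to 0.077. The Foxp3 median was 0.19 with no limit on antigen-presenting RNA and likewise 0.19 with classes from 2 UMIs, and 0.18 with equal weight of tag groups, a setting that gave −0.10 at day 13 and 0.094 at day 19 for Pdcd1-positive over Pdcd1-negative CD4. The Gzmc or Gzmf median was −0.13 without cycling barcodes and −0.12 without barcodes over 25000 gene UMIs, where cycling over other CD8 went from −0.32 to −0.15 at day 13 and from −0.15 to −0.064 at day 19. Without mitochondrial and ribosomal protein genes in the total, Cd209a over CD8 at day 13 went to −0.47, Fscn1 over CD8 to 0.014, terminal over progenitor at day 19 to −0.10 and cycling at day 19 to −0.27. Median-of-ratios scaling gave 0.15 and 0.24 for Cd209a over CD8 at day 13 and day 19, and −0.19 for cycling at day 19. Leaving out single tag groups gave −0.028 to 0.11 for terminal over progenitor at day 19, the highest without day-19 tag group 2. The subsets of the Fscn1 lineage, added after the data were seen, gave 1.14 and −0.79 over the Cd209a lineage and 0.77 and −0.86 over CD8. Without thinning, the median share of barcodes with a UMI over the 9 genes went from 82.1% to 91.3% in CD8 and from 83.5% to 91.2% in CD4 at day 13, and from 75.8% to 91.1% and from 82.8% to 91.2% at day 19. Of 6615 values of single genes, 5468 stayed within their counting interval. The ratio of Tapbp between days in CD8 T cells ran from −0.51 to −0.39 over these settings, while that of H2-D1 changed sign in 1 of 13. With 1 capture per day, none of these differences has a replicate.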
